A study of Homo sapiens with 12 samples.

Results

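The genes of the mitochondrial ribosomal proteins were taken as every gene of the deposited table whose name begins with MRPL or MRPS followed by a number, with an optional letter A, B or C. This gave 78 of 61466 genes, 49 with MRPL names (large subunit) and 29 with MRPS names (small subunit). Expression was measured by RNA sequencing in SU-DHL-8 and Farage, established human lines of diffuse large B cell lymphoma, a cancer of mature B cells. Each line received either vehicle or morusinol, a prenylated flavonoid of mulberry, and RNA was taken at 12 h. Line and treatment gave 4 groups of 3 libraries. Both lines were labelled wild type, and no label states a dose. Nothing in the labels ties replicates to separate cultures, so p-values reflect the variation among these libraries alone, which may be technical.

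The mitochondrial ribosome translates the few messages of the mitochondrial genome, nearly all of which encode core subunits of the respiratory chain and ATP synthase. Its ribosomal RNAs are made inside the organelle, whereas its proteins are encoded in the nucleus, made in the cytosol and imported. Compared with its bacterial ancestor it has lost much RNA and gained many proteins with no bacterial counterpart, so its subunits fall into bacterial homologues and mitochondria-specific proteins. The large subunit carries a stalk that recruits translation factors, a central protuberance at the subunit interface and an exit tunnel that opens towards the inner membrane. The small subunit holds the decoding region and the channel for the message.

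The names are historical, and a few mislead. MRPS30 and MRPS18A encode proteins that sit in the large subunit, and MRPS36 encodes a part of the 2-oxoglutarate dehydrogenase complex instead of a ribosomal subunit. Subunits with other names (DAP3, PTCD3, CHCHD1, AURKAIP1 and GADD45GIP1) do not match the naming rule and are given beside the members. The 13 protein-coding genes of the mitochondrial genome, whose messages this ribosome translates, were listed at 0 in all 12 libraries, so the products of its work could not be examined.

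Values are FPKM, which scale the fragments of a gene to its length and to the size of the library. The spacing of low values in the table puts the depth at 12.1 M (SU-DHL-8 morusinol replicate 2) to 37.9 M (Farage control replicate 1) counting steps per library, where a step may be a single read of a pair. All 6 B cell markers examined were present in every library, CD22 being lowest at 2.67 FPKM, the highest level of any being 407 FPKM. Of 8 T and NK cell genes, 2 exceeded 1 FPKM in some library (PRF1, up to 4.36, and NKG7, up to 2.29), and CD3D, CD3E and CD3G reached at most 0.0803. Of 6 myeloid genes 1 did (LYZ, up to 1.43), with S100A8 and S100A9 listed at 0, and of 8 fibroblast, endothelial and epithelial genes 1 did (PDGFRB, up to 1.32). Because FPKM is a share of each library, a change in the number of cells of a state and a change in RNA per cell cannot be told apart.

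Mitochondrial ribosomal proteins were well expressed in both lines before treatment. The summed FPKM of the 78 genes was 2341, 2349 and 2282 in untreated SU-DHL-8 and 1742, 1740 and 1712 after morusinol. In Farage it was 1667, 1625 and 1730 in the controls and 1270.1, 1283 and 1234 after morusinol. All morusinol libraries of a line therefore lay below all of its controls, by 25.5% in SU-DHL-8 and 24.6% in Farage on the means. The fall in the sum was 31.2% for MRPL names and 16.2% for MRPS names in SU-DHL-8, and 27.5% and 18.2% in Farage. A few high genes weigh heavily in these sums. The MRPS sum went from a mean of 882 to 739 in SU-DHL-8. Within it MRPS10, MRPS21 and MRPS35 had means of 166, 92.0 and 82.4 FPKM in the controls and 154, 88.0 and 93.3 after morusinol. MRPS26 and MRPS34, also high, went from 84.4 and 81.8 to 49.9 and 52.1. Untreated Farage began at 72.0% of the SU-DHL-8 control sum, close to the sum of the treated SU-DHL-8 libraries. The total FPKM of all genes differed among libraries. As a share of that total, the 78 genes fell by 30.8% in SU-DHL-8 and by 23.9% in Farage. On this measure untreated Farage stood at 77.2% of the SU-DHL-8 controls and treated SU-DHL-8 at 69.2%.

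**Figure D1:**
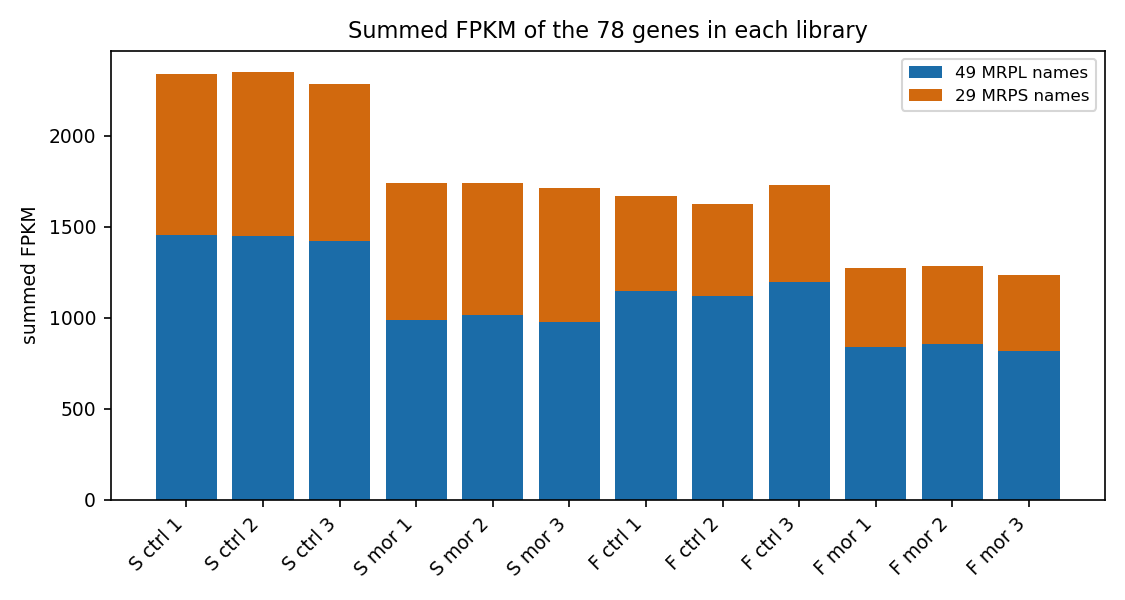
Summed FPKM of the 78 genes in each of the 12 libraries (vertical axis; bars start at 0), divided into 49 genes with MRPL names and 29 with MRPS names. S is SU-DHL-8, F is Farage, ctrl is control and mor is morusinol; the sums fell from 2324 ± 36.7 to 1731 ± 16.8 in SU-DHL-8 and from 1674 ± 53.0 to 1262 ± 25.4 in Farage (mean ± SD, n = 3).

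Most of these genes fell after morusinol in both lines. Each gene was tested with limma on log2(FPKM + 1) among the 17574 genes that reached 1 FPKM in 3 or more libraries. Genes with a Benjamini-Hochberg adjusted p under 0.05, adjusted over all of them, are described as called. A total of 75 members passed this filter; MRPL38, MRPL53 and MRPS24 did not. In SU-DHL-8, 58 of the 75 were called in either direction (46.8% of all tested genes were). Of these 55 fell and 3 rose, where 21.6% of all tested genes fell and 25.1% rose. In Farage 58 were called as well (43.1% of all tested genes); 54 fell and 4 rose, where 21.2% of all tested genes fell and 21.9% rose. The median log2 difference of the members was -0.46 in SU-DHL-8 and -0.41 in Farage, against 0.017 and -0.027 over all tested genes.

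The shift was broad and moderate. Log2 differences of members ran from -1.08 to 0.36 in SU-DHL-8 and from -1.04 to 0.51 in Farage. In each line 65 of 75 were below 0, where 45.5% (SU-DHL-8) and 52.7% (Farage) of all tested genes were. A decrease of more than 1.5-fold on the FPKM + 1 scale was seen for 25 members in SU-DHL-8 (33.3%, against 10.8% of all tested genes) and for 21 in Farage (28.0%, against 12.2%). No member increased by that much in either line. A total of 44 members fell in both lines, 11.1% of all tested genes doing so. The genes that rose in both were MRPL10 and MRPL45, where 11.5% of all tested genes rose in both. Neither line's response was called for 6 members (MRPL2, MRPL46, MRPL54, MRPL58, MRPS18A and MRPS18C), against 37.1% of all tested genes.

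**Figure D2:**
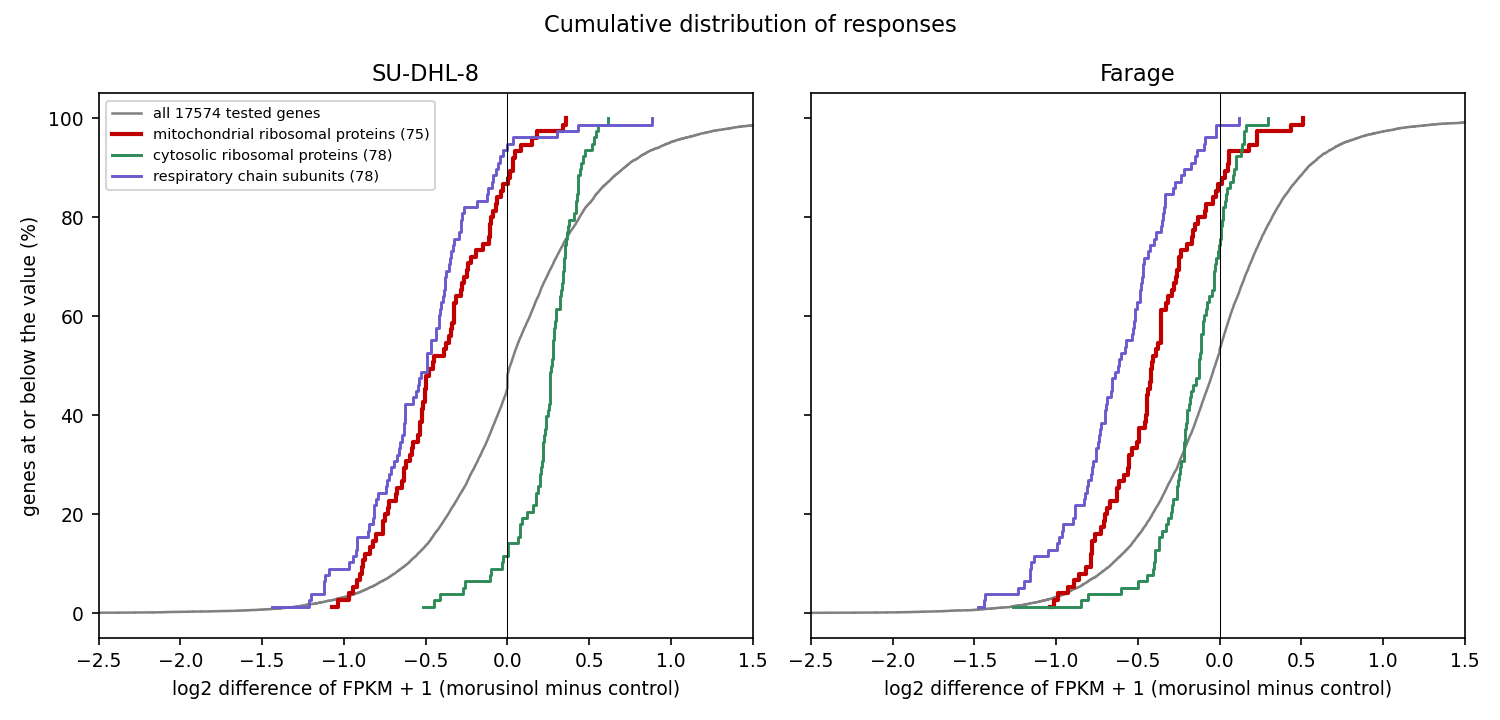
Cumulative share of genes (vertical axis, %) at or below each log2 difference of FPKM + 1, morusinol minus control (horizontal axis), for SU-DHL-8 (left) and Farage (right). The curve of the 75 mitochondrial ribosomal proteins lies to the left of the curve of all 17574 tested genes in both panels (medians -0.46 and -0.41), as does that of the 78 respiratory chain subunits (-0.49 and -0.62), whereas the 78 cytosolic ribosomal proteins lie to the right in SU-DHL-8 (0.27) and slightly to the left in Farage (-0.12).

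The cytosolic ribosome, the cell's main protein factory, went the other way in SU-DHL-8. In Farage it also shifted lower, but by less than the members (median -0.12 against -0.41). Of its 78 tested protein genes, 61 rose and 4 fell in SU-DHL-8, where 25.1% and 21.6% of all tested genes did. In Farage 2 rose and 34 fell, where 21.9% and 21.2% of all tested genes did. The nuclear-encoded subunits of the respiratory chain, whose mitochondrially encoded partners are the products of the mitochondrial ribosome, had 63 of 78 lower and 2 higher in SU-DHL-8 and 70 lower and 0 higher in Farage. The members' counts thus stood closer to those of the respiratory chain than to those of the cytosolic ribosome in both lines.

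Stretches of promoter are shown for members at both ends of the response, to let the letters around their starts be compared. They are the 4 members with the largest combined fall, and the 2 with the largest combined rise among those lower in neither line, that had one of the searched motifs in an exon-free stretch just upstream. Sequences are from RefSeq on GRCh38.p14, 5′ to 3′ on the gene's strand, with motif matches in capitals and bases in GENCODE 29 exons left out. The motif CCGGAAG is bound by ETS factors such as GABP. The NRF1 motif, searched with its sixth base free, is seen in capitals in MRPL17, MRPL36 and MRPL45. GABP and NRF1 are both known activators of nuclear genes for mitochondrial proteins. MRPL17 is at chr11:6683402-6683551 (minus strand), MRPL36 at chr5:1799896-1800045 (minus), MRPL20 at chr1:1407314-1407463 (minus), MRPL3 at chr3:131502984-131503133 (minus), MRPL45 at chr17:38296918-38297022 (plus) and MRPS10 at chr6:42217866-42218015 (minus).
MRPL17: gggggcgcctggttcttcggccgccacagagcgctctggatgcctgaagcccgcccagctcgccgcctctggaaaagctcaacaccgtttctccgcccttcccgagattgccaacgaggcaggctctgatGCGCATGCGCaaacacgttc
MRPL36: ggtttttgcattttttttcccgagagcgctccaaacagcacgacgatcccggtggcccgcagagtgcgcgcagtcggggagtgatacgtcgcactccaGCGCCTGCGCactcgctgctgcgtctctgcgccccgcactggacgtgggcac
MRPL20: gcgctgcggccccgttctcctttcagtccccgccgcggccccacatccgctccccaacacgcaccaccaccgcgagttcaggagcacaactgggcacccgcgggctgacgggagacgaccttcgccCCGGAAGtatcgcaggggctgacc
MRPL3: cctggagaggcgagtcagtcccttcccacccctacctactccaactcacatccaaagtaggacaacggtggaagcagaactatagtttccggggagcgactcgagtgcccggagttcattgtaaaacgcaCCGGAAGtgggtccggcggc
MRPL45: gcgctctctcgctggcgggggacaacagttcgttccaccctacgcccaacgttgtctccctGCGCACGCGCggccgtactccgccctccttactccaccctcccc
MRPS10: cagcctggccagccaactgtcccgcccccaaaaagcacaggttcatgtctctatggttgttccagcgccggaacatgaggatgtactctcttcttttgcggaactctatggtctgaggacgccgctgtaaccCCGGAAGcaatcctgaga

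In these stretches MRPL17, MRPL36 and MRPL45 carried the NRF1 motif, beginning 81, 110 and 189 bases before the RefSeq start, and MRPL20, MRPL3 and MRPS10 carried the ETS motif, beginning 44, 32 and 22 bases before it. The NRF1 motif was thus seen in 2 genes that fell in both lines and in MRPL45, which rose in both, and the ETS motif in 2 that fell in both and in MRPS10, which rose in Farage and was not called in SU-DHL-8. In the MRPL17 stretch the NRF1 motif matches on both strands at the same place.

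Over the full windows (250 bases before to 50 after the start), 69 of 78 members had a RefSeq promoter, and both strands were searched. The ETS motif CCGGAAG was in 42.0% of them (29), against 21.0% of 9398 promoters of tested genes and 10.7% of all 27305 promoters. The YY1 motif was in 14.5% (10 members, MRPL36, MRPS10 and MRPS18B among them), against 2.25% and 0.916%. The NRF1 motif was in 11.6% (8), against 12.6% and 6.28%, and the E-box CACGTG, bound by MYC, was in 8.70% (6), against 10.4% and 7.43%. Of motifs bound by stress factors, the cAMP response element TGACGTCA was in 0 of 69 (3.47% of promoters of tested genes) and TGATGNAA, a core of the ATF4 response element, was in 1 (MRPL55; 1.82% of promoters of tested genes). The ETS motif was in 37.5% of the 40 matched members lower in both lines and in 46.2% of the other 26 tested and matched members. The motifs may overlap one another, and a match is a description of letters only.

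Among the large subunit proteins that fell most, MRPL18 (ENSG00000112110; chromosome 6, 159789812 to 159798436, plus strand, GENCODE 29 on GRCh38) belongs to the central protuberance. It had 129.9, 114 and 116 FPKM in untreated SU-DHL-8 and 54.8, 56.8 and 57.1 after morusinol, and in Farage 51.8, 44.2 and 54.5 in the controls and 29.99, 31.7 and 24.97 after morusinol. The treated and control libraries of each line did not overlap, and its control level was lower in Farage. The largest rises and falls of a line were picked among members without overlap there. Lack of overlap in that line therefore follows from the choice. It fell by 1.08 ± 0.0957 (log2 difference ± SE) in SU-DHL-8 (limma adjusted p = 5.55e-06) and by 0.78 ± 0.0957 in Farage (limma adjusted p = 8.11e-05).

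MRPL17 (ENSG00000158042; chromosome 11, 6680782 to 6683401, minus strand), a large subunit protein with a bacterial homologue, fell by nearly the same amount in both lines. Its FPKM was 20.9, 20.9 and 18.5 in the SU-DHL-8 controls, 9.19, 9.64 and 10.4 after morusinol, 19.3, 17.5 and 18.9 in the Farage controls and 8.44, 8.28 and 9.92 after morusinol. All treated libraries lay near the same level and all controls near another, in both lines. The gene fell by 0.97 ± 0.0756 in SU-DHL-8 and by 0.99 ± 0.0756 in Farage (limma adjusted p = 2.01e-06 and 2.60e-06), and the responses did not differ between lines past the threshold (difference -0.02 ± 0.107, limma adjusted p = 0.914).

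MRPL51 (ENSG00000111639; chromosome 12, 6491886 to 6493841, minus strand), a mitochondria-specific large subunit protein, was among the highest members. It had 122, 119 and 123 FPKM in the SU-DHL-8 controls and 59.1, 65.9 and 63.1 after morusinol, and 82.0, 78.4 and 82.3 against 44.2, 52.4 and 43.4 in Farage. The groups did not overlap in either line. It fell by 0.94 ± 0.0668 in SU-DHL-8 (limma adjusted p = 9.91e-07) and by 0.79 ± 0.0668 in Farage (limma adjusted p = 5.50e-06). Part of its exon length (31.3%) overlaps NCAPD2 on the opposite strand, which fell by 0.33 ± 0.0608 in SU-DHL-8 and had a log2 difference of -0.01 ± 0.0608 in Farage.

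In Farage the largest fall was that of MRPL36 (ENSG00000171421; chromosome 5, 1798386 to 1801366, minus strand), a large subunit protein with a bacterial homologue. Its FPKM was 27.0, 25.03 and 27.8 in the Farage controls and 14.3, 12.8 and 10.5 after morusinol, against 19.5, 18.1 and 18.7 and then 11.4, 8.52 and 12.4 in SU-DHL-8. The groups did not overlap in either line. It fell by 1.04 ± 0.127 in Farage and by 0.76 ± 0.127 in SU-DHL-8 (limma adjusted p = 7.73e-05 and 0.000544).

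MRPL12 (ENSG00000262814; chromosome 17, 81703357 to 81707526, plus strand), the stalk protein that contacts translation factors, fell by 1.01 ± 0.119 in Farage and by 0.67 ± 0.119 in SU-DHL-8 (limma adjusted p = 6.04e-05 and 0.000835). Its FPKM went from 10.5, 11.1 and 11.8 to 5.60, 5.502 and 4.07 in Farage and from 14.3, 15.1 and 14.0 to 9.75, 9.41 and 7.15 in SU-DHL-8, with no overlap in either line. MRPL12 shares 68.2% of its exon length with AC139530.2, which was listed at 0 in all 12 libraries. MRPL20 (ENSG00000242485; chromosome 1, 1401908 to 1407313, minus strand), another bacterial homologue, went from 19.3, 19.6 and 21.4 to 9.55, 11.1 and 9.70 FPKM in Farage and from 17.5, 17.5 and 16.9 to 9.73, 11.3 and 9.12 in SU-DHL-8. It fell by 0.92 ± 0.0773 and by 0.73 ± 0.0773, respectively (limma adjusted p = 4.89e-06 and 2.05e-05).

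**Figure D3:**
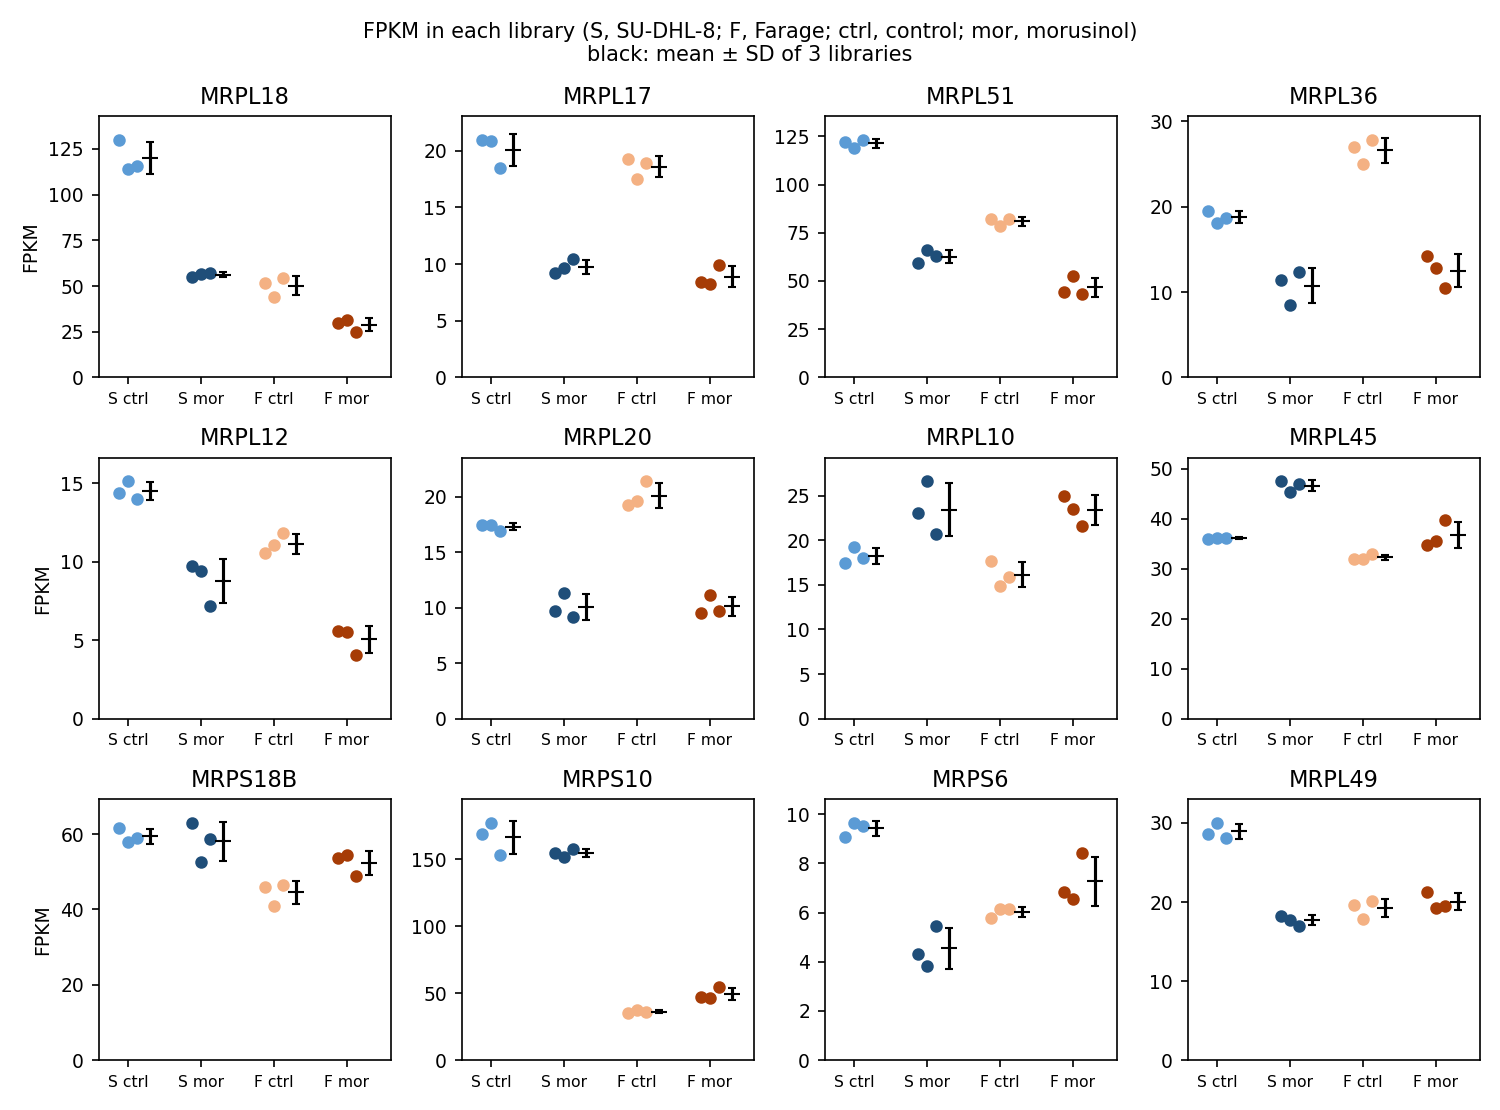
FPKM (vertical axis, from 0) of 12 members in each of the 12 libraries, with the mean ± SD of 3 libraries in black. MRPL18, MRPL17, MRPL51, MRPL36, MRPL12 and MRPL20 fell in both lines, MRPL10 and MRPL45 rose in both, MRPS18B and MRPS10 rose in Farage, and MRPS6 and MRPL49 fell in SU-DHL-8.

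Few members rose. MRPL10 (ENSG00000159111; chromosome 17, 47823272 to 47831534, minus strand) encodes the base of the stalk, the platform on which the MRPL12 protein sits. Its FPKM was 17.4, 19.2 and 18.0 in the SU-DHL-8 controls and 23.01, 26.6 and 20.6 after morusinol, and 17.7, 14.9 and 15.9 against 24.97, 23.5 and 21.6 in Farage. Every treated library lay above every control of its line. The rise was 0.51 ± 0.0923 in Farage (limma adjusted p = 0.00121) and 0.34 ± 0.0923 in SU-DHL-8 (limma adjusted p = 0.0114), and the SU-DHL-8 call was lost when libraries were rescaled to an equal sum (0.24, limma adjusted p = 0.102) or by the median ratio over genes (0.25, limma adjusted p = 0.0709). The stalk base and the stalk protein thus moved in opposite directions, while their neighbour MRPL11 fell by 0.53 in SU-DHL-8 and by 0.70 in Farage.

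MRPL45 (ENSG00000278845; chromosome 17, 38297023 to 38323218, plus strand), a mitochondria-specific protein beside the exit tunnel that links the ribosome to the inner membrane, had 35.9, 36.2 and 36.2 FPKM in the SU-DHL-8 controls and 47.5, 45.4 and 47.0 after morusinol. In Farage it had 32.0, 31.9 and 32.9 in the controls and 34.8, 35.7 and 39.8 after morusinol. The groups did not overlap, and the spread among controls was small. The rise was 0.36 ± 0.0457 in SU-DHL-8 (limma adjusted p = 7.78e-05) and 0.18 ± 0.0457 in Farage (limma adjusted p = 0.00894). The Farage call was lost under rescaling to an equal sum (limma adjusted p = 0.0640) and in a fit of the Farage libraries alone (limma adjusted p = 0.0550). Its neighbours at the exit tunnel went the other way: of the other 7 in the list of that region all 7 fell in SU-DHL-8 and 6 fell in Farage, MRPL23 being the exception there.

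MRPS18B (chromosome 6, 30617709 to 30626395, plus strand) rose in Farage by 0.23 ± 0.0728 (limma adjusted p = 0.0278), from 46.0, 41.0 and 46.6 to 53.7, 54.5 and 48.7 FPKM, without overlap. In SU-DHL-8 its control values of 61.7, 57.8 and 58.9 overlapped those after morusinol, 62.99, 52.6 and 58.7. Leaving out Farage control replicate 2 (0.17, limma adjusted p = 0.105), morusinol replicate 1 (0.21, limma adjusted p = 0.0819) or morusinol replicate 2 (0.20, limma adjusted p = 0.0922) ended the Farage call. MRPS18B is one of 3 paralogues of a single bacterial small subunit protein. The other two, MRPS18A in the large subunit and MRPS18C in the small subunit, were called in neither line, with log2 differences of -0.24 and -0.03 in SU-DHL-8 and 0.01 and -0.09 in Farage. MRPS18A was called lower in SU-DHL-8 under rescaling to an equal sum, by the median ratio and without Farage morusinol replicate 2. It was not called there under scaling to protein-coding genes.

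MRPS35, a mitochondria-specific small subunit protein, was the only member called in opposite directions, higher in SU-DHL-8 and lower in Farage (1.71% of all tested genes), and 0 members showed the reverse (2.55%). It had 83.6, 88.9 and 74.7 FPKM in the SU-DHL-8 controls and 93.3, 91.7 and 95.0 after morusinol, and 45.6, 44.3 and 46.9 against 39.6, 39.0 and 43.1 in Farage. The groups did not overlap, but the changes were small, 0.18 ± 0.0605 and -0.17 ± 0.0605 (limma adjusted p = 0.0317 and 0.0490). Each call was lost under rescaling to an equal sum and by the median ratio, and on leaving out most single libraries of the line. The rescaled values were 0.08 (limma adjusted p = 0.599) and 0.09 (0.379) in SU-DHL-8, and -0.15 (0.236) and -0.15 (0.153) in Farage. Under scaling to protein-coding genes the SU-DHL-8 call was kept and the Farage call was lost (-0.099, limma adjusted p = 0.277).

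By structural class, the falls were most complete among large subunit proteins with bacterial homologues, 26 of 30 in SU-DHL-8 and 25 of 30 in Farage, with 1 rise in each. Of the 19 tested mitochondria-specific large subunit proteins, 11 fell and 1 rose in SU-DHL-8 and 12 fell and 1 rose in Farage. Among small subunit proteins, 10 of 15 bacterial homologues fell in each line, with 0 rises in SU-DHL-8 and 1 in Farage, and 7 of 10 mitochondria-specific proteins fell and 1 rose in each line. The Farage rise in this last class was MRPS18B, counted there although it is a paralogue of a bacterial protein. Medians ran from -0.56 (large subunit homologues) to -0.24 (small subunit, mitochondria-specific) in SU-DHL-8, and from -0.45 to -0.36 in Farage. Differences between these classes were not tested. Here and in the paragraphs below, counts stand beside 21.6% of all tested genes lower and 25.1% higher in SU-DHL-8. In Farage these shares were 21.2% and 21.9%.

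Within the large subunit, the central protuberance had 3 of 6 tested members lower in SU-DHL-8 (MRPL18, MRPL27 and MRPL55) and 4 in Farage (MRPL18, MRPL27, MRPL40 and MRPL48), and none rose. MRPL46 of the same structure had a mean of 1.09 FPKM over the 12 libraries and was called in neither line. In the decoding region of the small subunit all 5 tested members (MRPS2, MRPS5, MRPS7, MRPS11 and MRPS12) fell in SU-DHL-8, whereas MRPS2, MRPS7 and MRPS12 fell in Farage. The call of MRPS11 in SU-DHL-8 (-0.26, limma adjusted p = 0.0340) was lost on leaving out control replicate 1 or 2 or morusinol replicate 1 or 3 (-0.25 to -0.18, limma adjusted p from 0.0903 to 0.125). MRPS12, which lies where the codon is read, changed by -0.82 and -0.89. MRPL58, a release factor homologue that became a fixed part of the large subunit, had log2 differences of 0.04 and 0.03 and overlapped between groups in both lines.

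The subunits named otherwise moved with the members. All 5 fell in both lines, with medians of -0.78 in SU-DHL-8 and -0.57 in Farage. CHCHD1 fell by 0.90 and 0.61, GADD45GIP1 by 0.91 and 0.57, AURKAIP1 by 0.78 and 0.66, PTCD3 by 0.22 and 0.34, and DAP3, a GTP-binding small subunit protein, by 0.29 and 0.16 (SU-DHL-8 first). With these added and MRPS36 taken out, 59 of 79 tested subunit genes fell in each line, 3 rose in SU-DHL-8 and 4 in Farage. MRPS36 itself fell by 0.46 ± 0.0911 in SU-DHL-8 (limma adjusted p = 0.00179) and had a log2 difference of -0.20 ± 0.0911 in Farage (limma adjusted p = 0.110).

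Genes for other steps of mitochondrial gene expression can be read against the shares of all tested genes, 21.6% lower and 25.1% higher in SU-DHL-8 and 21.2% and 21.9% in Farage. Of 15 tested factors of mitochondrial transcription and RNA handling, 12 fell and 1 rose in SU-DHL-8, and 11 fell and 1 rose in Farage. SLIRP, which stabilises mitochondrial messages, fell by 1.11 ± 0.0457 in SU-DHL-8 and by 1.43 ± 0.0457 in Farage (limma adjusted p = 2.00e-08 and 6.24e-09), more than any member. TRMT10C of mitochondrial RNase P fell by 0.81 and 0.90, the RNA-degrading enzyme PNPT1 by 0.69 and 0.86, and TFAM, which packages and transcribes the mitochondrial genome, by 0.60 and 0.43.

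Of 14 tested genes listed as translation factors, 3 fell and 4 rose in SU-DHL-8, close to the shares of all tested genes, and 7 fell and 1 rose in Farage. The elongation factors TUFM (-0.50 and -0.44) and GFM1 (-0.33 and -0.48) and the formyltransferase MTFMT (-0.31 and -0.54) fell in both lines, whereas the initiation factor MTIF2 rose in SU-DHL-8 (0.52 ± 0.0499, limma adjusted p = 9.68e-06) and had a log2 difference of 0.07 ± 0.0499 in Farage (limma adjusted p = 0.269). The others that rose were GUF1 (0.27), MRRF (0.27) and OXA1L (0.27) in SU-DHL-8 and MTRFR (0.50) in Farage. OXA1L is in this list although it is a membrane insertase and not itself a translation factor. Of 19 tested assembly factors 6 fell and 4 rose in SU-DHL-8, and 9 fell and 3 rose in Farage. MALSU1, which keeps the subunits apart during assembly by binding MRPL14, fell by 0.70 and 0.51, the helicase DHX30 by 0.63 and 0.33, FASTKD2 by 0.44 and 0.69, and RBFA, which matures the small subunit, by 0.43 and 0.53. NSUN4, which methylates the small ribosomal RNA (0.53 and 0.21), and the GTPases NOA1 (0.47 and 0.19) and GTPBP10 (0.24 and 0.32) rose in both lines, and MTG2, another GTPase, rose in SU-DHL-8 (0.18) and had a log2 difference of -0.11 in Farage (limma adjusted p = 0.0663).

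Of the nuclear regulators of mitochondrial genes, 4 of 9 tested fell and 1 rose in SU-DHL-8, and 3 fell and 1 rose in Farage. The coactivators PPARGC1B (-0.89 ± 0.0604 and -0.40 ± 0.0604) and PPRC1 (-0.41 and -0.36) and the nuclear receptor ESRRA (-0.43 and -0.54) fell in both lines. MYC, a broad activator of growth genes, rose in SU-DHL-8 from 50.7 ± 3.77 to 70.3 ± 4.73 FPKM (n = 3; 0.46 ± 0.0760, limma adjusted p = 0.000498), and in Farage it had 30.8 ± 3.04 FPKM in the controls and 28.1 ± 0.650 after morusinol (n = 3; -0.12 ± 0.0760, limma adjusted p = 0.224). Its response differed between the lines (-0.59 ± 0.108, limma adjusted p = 0.00190). The members' median fell in both lines.

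Across the 75 members the log2 differences of the lines had a Pearson r of 0.56 and a Spearman rho of 0.57, against 0.41 and 0.40 across all 17574 tested genes. Members of a line share its 6 libraries, so these are descriptions. A total of 63 members had the same sign in both lines. As 65 of 75 lay below 0 in each line, many of these follow from the general fall. The size of a member's response had little relation to its level (r = -0.05 in SU-DHL-8 and -0.07 in Farage) or to its exon length (r = 0.13 and 0.13). Over the 17100 tested genes with a length, response and exon length had r = 0.009 in SU-DHL-8 and 0.25 in Farage. Shorter genes thus tended to lie lower in Farage, and the part of length in the members' fall there was not tested.

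**Figure D4:**
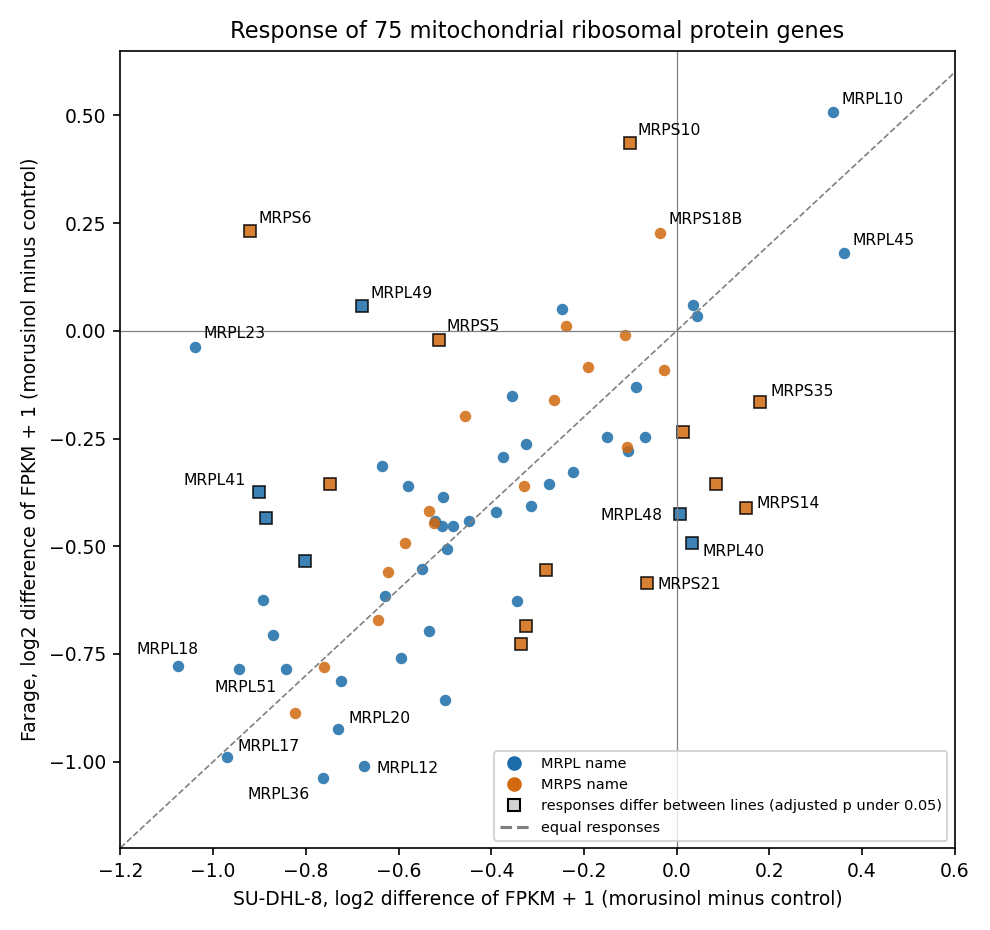
Log2 difference of FPKM + 1, morusinol minus control, in SU-DHL-8 (horizontal axis) and Farage (vertical axis) for the 75 tested members, blue for MRPL names and orange for MRPS names. Most points lie in the lower left along the dashed line of equal responses (r = 0.56); outlined squares are the 18 members whose responses differed between lines, MRPS6 and MRPL49 lying farthest above the line and MRPS14 among those farthest below.

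The difference of the responses was called for 18 of 75 members (34.9% of all tested genes), 8 with a higher log2 response in Farage (17.3% of all tested genes) and 10 with a lower one (17.6%). Its median over members was 0.01, against -0.07 over all tested genes. When libraries were rescaled to an equal sum or by the median ratio, the members' counts became 12 higher and 4 lower in each case, so that their balance turned, while the share of higher calls among all called genes went from 49.6% to 60.2% and 60.7%. Under scaling to protein-coding genes the balance did not turn. There 7 members were higher, the same 10 were lower, and the share of higher calls among all called genes was 47.6%.

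MRPS6 (ENSG00000243927; chromosome 21, 34073224 to 34143034, plus strand), a small subunit protein with a bacterial homologue, had the largest such difference. It had 9.08, 9.65 and 9.54 FPKM in the SU-DHL-8 controls and 4.32, 3.85 and 5.47 after morusinol, a fall of 0.92 ± 0.106 on the log2 scale (limma adjusted p = 3.79e-05). In Farage it had 5.78, 6.13 and 6.13 in the controls and 6.82, 6.57 and 8.41 after morusinol, which did not overlap but did not pass the test (0.23 ± 0.106, limma adjusted p = 0.107), except when SU-DHL-8 morusinol replicate 3 was left out (limma adjusted p = 0.0440). The difference of the responses was 1.15 ± 0.150 (limma adjusted p = 0.000218). SLC5A3, a transporter gene nested in the MRPS6 locus on the same strand, fell in SU-DHL-8 from 10.5 ± 0.0535 to 7.33 ± 0.493 FPKM and rose in Farage from 11.7 ± 0.860 to 16.3 ± 1.93 FPKM (n = 3). MRPS6 shares 9.61% of its exon length with same-strand genes, and the part of SLC5A3 reads in its values was not tested. The pseudogene MRPS6P2 reached 2.78 FPKM in its highest library, 72.2% of the lowest MRPS6 value, and its part was not tested either.

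MRPL49 (ENSG00000149792; chromosome 11, 65122183 to 65127371, plus strand), a mitochondria-specific large subunit protein, was called in SU-DHL-8 and not in Farage. Its FPKM went from 28.6, 30.02 and 28.1 to 18.3, 17.8 and 17.0 in SU-DHL-8, without overlap, and was 19.7, 17.9 and 20.1 in the Farage controls and 21.3, 19.3 and 19.5 after morusinol, with overlap. The treated SU-DHL-8 libraries came to lie near the level of Farage. The log2 difference was -0.68 ± 0.0537 in SU-DHL-8 (limma adjusted p = 2.22e-06) and 0.06 ± 0.0537 in Farage (limma adjusted p = 0.439), and the difference of the responses was 0.74 ± 0.0759 (limma adjusted p = 4.58e-05). MRPL49 shares 12.2% of its exon length with FAU and SYVN1 on the opposite strand. FAU ranged from 116 to 179 FPKM. Mean SYVN1 went from 15.0 to 29.7 FPKM in SU-DHL-8 and from 20.7 to 27.1 in Farage. The part of their reads in the MRPL49 values was not tested.

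MRPS14 (chromosome 1, 175010789 to 175023425, minus strand), a small subunit homologue, went the other way. It had 8.73, 8.76 and 9.97 FPKM in the Farage controls and 6.82, 6.63 and 6.42 after morusinol, and 16.8, 17.3 and 15.7 against 21.7, 16.0 and 18.3 in SU-DHL-8, where the groups overlapped. The difference of the responses was -0.56 ± 0.130 (limma adjusted p = 0.00720). Without SU-DHL-8 morusinol replicate 2 the gene was also called higher in SU-DHL-8 (0.25, limma adjusted p = 0.0299). MRPS14 shares 13.5% of its exon length with CACYBP on the opposite strand. Mean CACYBP was 93.2 FPKM in the SU-DHL-8 controls and 67.8 after morusinol, and 31.4 and 30.6 in Farage. The part of CACYBP reads in the MRPS14 values was not tested.

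MRPS10 (ENSG00000048544; chromosome 6, 42206801 to 42217865, minus strand) had the highest mean over the 12 libraries and the largest control difference between the lines. It encodes a small subunit homologue. Its FPKM was 168, 177 and 153 in the SU-DHL-8 controls, 155, 151 and 158 after morusinol, 35.0, 37.6 and 36.1 in the Farage controls and 47.4, 46.5 and 54.4 after morusinol. It rose in Farage by 0.44 ± 0.0665 (limma adjusted p = 0.000376), overlapped in SU-DHL-8 (-0.10 ± 0.0665, limma adjusted p = 0.254), and its responses differed by 0.54 ± 0.0940 (limma adjusted p = 0.00147). After morusinol it still stood far below the SU-DHL-8 level in Farage.

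Before treatment, 48 of the 75 members differed between the lines (64.1% of all tested genes did). In Farage 41 were lower and 7 higher, where 29.6% of all tested genes were lower and 34.5% higher. The median difference of members was -0.21, against 0.08 over all tested genes. Levels in the lines were otherwise closely related across members (r = 0.93 between log2 control means).

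**Figure D5:**
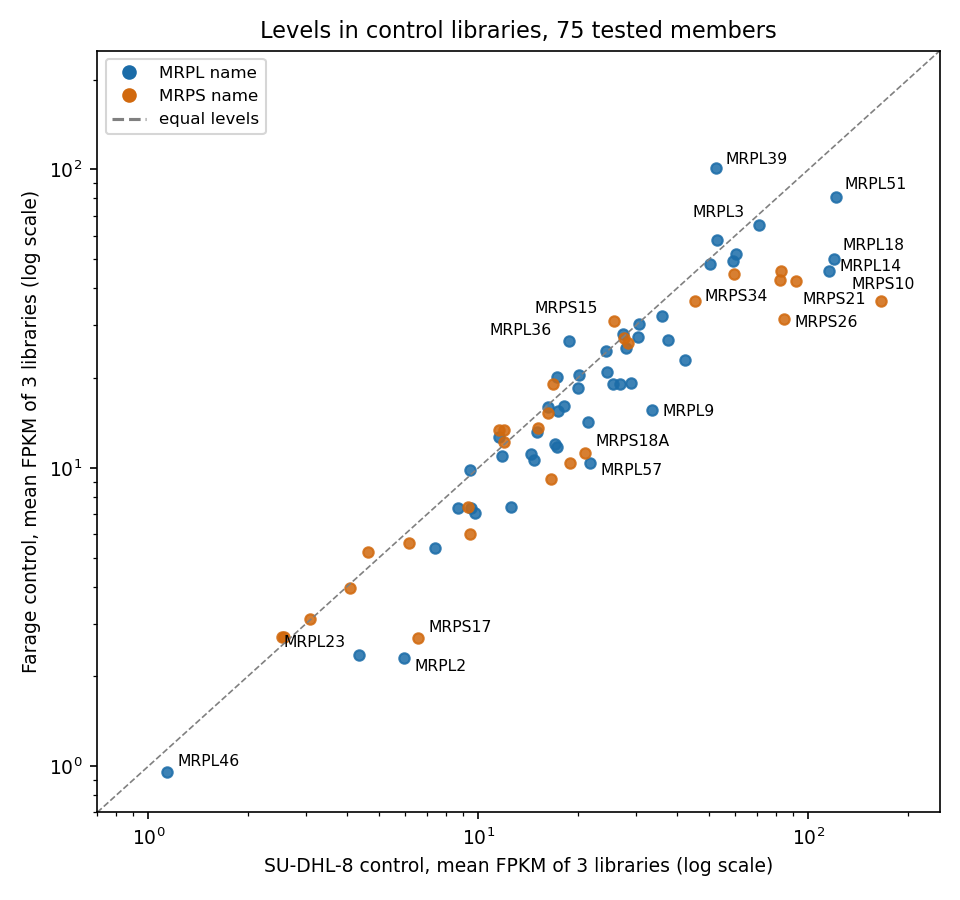
Mean FPKM of the 3 control libraries in SU-DHL-8 (horizontal, log scale) against Farage (vertical, log scale) for the 75 tested members, with a dashed line of equal levels. Most points lie on or below the line; MRPS10, at 166 against 36.2 FPKM, lies farthest below it, and MRPL39, at 52.3 against 101 FPKM, farthest above.

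MRPS10 was lower in Farage controls by 2.17 ± 0.0665 on the log2 scale (difference -2.17, limma adjusted p = 4.38e-10). MRPS26 (chromosome 20, 3045945 to 3048254, plus strand), a mitochondria-specific small subunit protein, had 86.0, 83.1 and 84.0 FPKM in SU-DHL-8 and 33.8, 30.2 and 30.7 in Farage (-1.39 ± 0.0948, limma adjusted p = 2.71e-07). MRPL14 (chromosome 6, 44113454 to 44127457, minus strand), the subunit that MALSU1 binds, had 116, 118 and 112 FPKM in SU-DHL-8 and 45.2, 41.3 and 51.0 in Farage (-1.32 ± 0.0978, limma adjusted p = 5.34e-07). None of these 3 genes overlapped between the lines.

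In the other direction, MRPL39 (chromosome 21, 25585656 to 25607517, minus strand), a mitochondria-specific large subunit protein, had 53.1, 55.0 and 48.8 FPKM in SU-DHL-8 controls and 96.8, 103 and 102 in Farage (0.93 ± 0.0557, limma adjusted p = 8.94e-08). Its response to morusinol was nevertheless the same size in both lines, -0.55 ± 0.0557 in each. MRPL36 (0.48 ± 0.127, limma adjusted p = 0.00660) and MRPS15 (0.26 ± 0.0598, limma adjusted p = 0.00302) were also higher in Farage controls, and neither overlapped between lines. MRPS15 had 25.5, 25.9 and 25.9 FPKM in SU-DHL-8 and 31.2, 29.6 and 32.2 in Farage.

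Control differences of the members were also set beside those of nearby genes. Over the 75 tested members, 43 had the same sign as the median of the other tested genes within 1 Mb and 32 the opposite one. Of the 57 members with a lower mean log2 level in Farage, 29 had neighbours with a median below 0 and 28 did not. Among members described above, the neighbours' medians were -1.02 for MRPS10 (37 genes, 30 of them below 0) and -0.91 for MRPS26 (30 genes, 22 below 0). They were -0.50 for MRPL14 (33 genes, 22 below 0) and 1.37 for MRPL39 (10 genes, 0 below 0). Each had the member's sign.

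Other members went against their surroundings. MRPS14 differed by -0.79 and its neighbours by 0.93 (16 genes, 3 below 0). MRPS35 differed by -0.84 and its neighbours by 0.23 (17 genes, 5 below 0). MRPS15 differed by 0.26, while its neighbours were mixed, with a median of -0.03 (19 genes, 10 below 0). MRPL16, a large subunit homologue, differed by -0.47 among neighbours at 1.58 (16 genes, 4 below 0). MRPL52, a mitochondria-specific large subunit protein, differed by -0.48 among neighbours at 3.28 (90 genes, 12 below 0). By chromosome, all 6 tested members on chromosome 6 were called lower in Farage (median -1.16). The 963 other tested genes there had a median of -0.27, and 62.6% were below 0, called or not. All 7 on chromosome 11 had a difference below 0 (median -0.47), but only MRPL16, MRPL48 and MRPL49 were called. The 865 other genes there had a median of 0.32, and 31.8% were below 0.

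Some members start back to back with another gene. A protein-coding partner on the opposite strand with a start within 500 bp (GENCODE 29) was found for 15 of the 75 tested members, against 9.88% of 10507 tested protein-coding genes. MRPL18 starts 63 bp from TCP1, a subunit of the cytosolic chaperonin, which fell by 1.06 in SU-DHL-8 and 0.71 in Farage, close to MRPL18 (-1.08 and -0.78). MRPL36 starts 34 bp from NDUFS6, a respiratory complex I subunit, which fell by 0.75 and 1.15 (MRPL36, -0.76 and -1.04). MRPL50 did the opposite of its partner: it fell by 0.50 and 0.86, while the zinc finger gene ZNF189 rose by 0.45 and 0.35. Of the 11 tested partners that were not members, 4 fell and 1 rose in each line, with medians of -0.09 and -0.10. MRPL46 and MRPS11, which are partners of each other 34 bp apart, had -0.26 for MRPS11 (called lower in SU-DHL-8) and 0.03 for MRPL46 there.

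For some members the value is less certain. MRPL53, a stalk protein, was listed at 0 in all 12 libraries, while its pseudogene MRPL53P1 reached 5.40 FPKM, and 45.2% of the MRPL53 exon length is shared with CCDC142 on the same strand. MRPL38 stayed between 0.556 and 1.16 FPKM and MRPS24 between 0.0619 and 0.760, and both overlapped between groups in both lines. Named pseudogenes exist for 36 of 78 members, and 17 of these 79 pseudogenes exceeded 1 FPKM in some library. A total of 14 members share more than 20% of their exon length with another gene, and because strandedness of the counting is not given, reads of overlapping genes on opposite strands cannot be told apart. MRPL23, at the exit tunnel, had the widest spread relative to its mean among tested members in every group, for example 6.83, 3.24 and 2.97 FPKM in the SU-DHL-8 controls against 2.89, 0.444 and 1.71 after morusinol. Its fall there (-1.04, limma adjusted p = 0.0407) was lost, among other settings, without SU-DHL-8 control replicate 1 (-0.73, limma adjusted p = 0.153) or morusinol replicate 2 (-0.65, limma adjusted p = 0.144).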

How the data were processed

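RNA sequencing values of 12 libraries (2 lines, vehicle or morusinol for 12 h, 3 libraries per group) were used. The authors deposited FPKM per gene. The labels' protocols name total RNA and a SMARTer mRNA-seq kit; no source used here names the aligner, counting program, annotation or strand setting. The submitters' processing notes list only the mouse builds GRCm38 and mm10, yet 94.8% of the 61466 identifiers match human GENCODE 29 (GRCh38), as do all 78 members. Columns named with an n were taken as control, the only group left for them. All 12 columns differed from one another.

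The FPKM were used as scaled by the authors. limma 3.58.1 (R 4.3.3) was fitted to log2(FPKM + 1) in all 12 libraries with 1 mean per group, an intensity trend and a robust prior, over the 17574 genes that reached 1 FPKM in 3 or more libraries. Tests were two-sided with Benjamini-Hochberg adjustment over these genes and a threshold of 0.05. Contrasts were morusinol minus control per line, the difference of these responses (Farage less SU-DHL-8), and the controls of Farage less those of SU-DHL-8. Differences are on the log2(FPKM + 1) scale, which understates changes of low genes. The procedure was tested on simulated data. Tables and plots used Python 3.11.15, pandas 2.3.3, numpy 2.4.6 and matplotlib 3.10.9.

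The members and gene lists were chosen with earlier results of these data known. Members described in full were, per line, the 4 largest rises and falls among those with a mean of at least 5 FPKM in the higher group and no overlap of groups, the 4 largest called differences of responses, the 3 largest control differences in each direction, and the highest and lowest members. Others are named by list or role, and MRPL23, the overlapping and neighbouring genes and the promoters shown were chosen after values were seen. Alternatives changed the pseudocount, the filter, the scaling, the variance prior, the libraries and the replicate block.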

Additional observations from a re-analysis of the deposited data

Results flagged for a closer look

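The responses of 18 members differed between the lines by limma's test of the difference itself (adjusted p under 0.05). Values are the Farage log2 response minus the SU-DHL-8 response. It was above 0 for MRPS6 (1.15), MRPL49 (0.74), MRPS10 (0.54), MRPL41 (0.53), MRPS5 (0.49), MRPL14 (0.45), MRPS26 (0.39) and MRPL16 (0.27). Of these, MRPL41, MRPL14, MRPS26 and MRPL16 fell in both lines and by more in SU-DHL-8, and MRPS5 fell in SU-DHL-8 (-0.51) and had a log2 difference of -0.02 in Farage.

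It was below 0 for MRPS14 (-0.56), MRPL40 (-0.53), MRPS21 (-0.52), MRPS33 (-0.44), MRPL48 (-0.43), MRPS15 (-0.39), MRPS25 (-0.36), MRPS35 (-0.35), MRPS31 (-0.27) and MRPS30 (-0.25). MRPS15, MRPS25 and MRPS31 fell in both lines and by more in Farage. MRPS14, MRPL40, MRPS21, MRPS33, MRPL48 and MRPS30 fell in Farage and were not called in SU-DHL-8. All 18 calls came from groups of 3 libraries. The calls of MRPL14, MRPS26, MRPL40, MRPL48, MRPS15, MRPS30, MRPS31, MRPS33 and MRPS35 were lost under at least 1 alternative, and those of the other 9 were not.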

How the results depend on the processing

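No member changed direction past the threshold under any alternative. Of single-member results, 5590 kept their side of the threshold, 218 lost it and 42 gained it. Of the calls, 49 of 55 falls in SU-DHL-8 and 50 of 54 in Farage were kept in every alternative run, as were 1 of 3 rises in SU-DHL-8 (MRPL45) and 2 of 4 in Farage (MRPL10 and MRPS10). Rises in SU-DHL-8 numbered 1 after rescaling to an equal sum and 1 after rescaling by the median ratio. The SU-DHL-8 median was -0.49 with a pseudocount of 0.1, -0.58 and -0.54 under these rescalings, and -0.41 when scaled to protein-coding genes, where the Farage median was -0.37. The members with a lower response in Farage numbered 4 and 4 under the equal sum and the median ratio, beside 12 with a higher one in each. Protein-coding scaling gave the same 10 lower members as the main fit, beside 7 higher. Members higher in Farage controls numbered 4 without a filter and 3 by the median ratio, and the control median was -0.13 (equal sum), -0.26 (median ratio) and -0.16 (protein-coding). The median of all genes between controls moved from 0.08 to 0.235 under the equal sum and 0.24 under protein-coding scaling. These medians are over different genes, as the filter was applied after scaling. The tested genes numbered 22986 and 25704 there, instead of 17574, and the tested members 77 in each, instead of 75. The cause of these moves was not tested.

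Leaving out each library in turn gave 2 to 3 rises and 49 to 55 falls in SU-DHL-8 (medians -0.47 to -0.40), 3 to 5 rises and 51 to 55 falls in Farage (medians -0.43 to -0.36), 6 to 10 higher and 8 to 11 lower responses in Farage, and 4 to 7 higher and 35 to 42 lower controls (medians -0.23 to -0.19). The 4 higher controls came without SU-DHL-8 control replicate 1 or 2. Same-numbered libraries did not deviate together (r from -0.08 to 0.03), so the numbers were not taken as pairs. With the replicate block there were 2 rises and 51 falls in SU-DHL-8, 4 and 53 in Farage, and 7 higher and 11 lower responses. A block across lines, chosen after seeing the data, gave 7 higher and 41 lower controls. Depth is known only from counting steps, so the spread of 3 libraries sets the precision, and members near 1 FPKM are the least precise.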
